A study of Drosophila melanogaster with 3 samples.

Results

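Of the 3065 Runt-GFP peaks in the authors' reproducible list, chosen by irreproducible discovery rate (IDR), 911 lay at one-directional promoters (29.7%, exact 95% interval 28.1 to 31.4). A peak was placed there when its summit lay within 500 bases of 1 or more protein-coding transcript starts, all of them on 1 strand. A further 369 summits (12.04%) lay near starts of both strands, here called both-strand promoter peaks, and 1785 (58.2%) lay away from protein-coding starts. Chromatin immunoprecipitation and sequencing (ChIP-seq) with an antibody against GFP had been carried out on whole Drosophila melanogaster embryos, 0 to 16 hours old, from a transgenic line in which Runt carries GFP at its C-terminus. The 3 biological replicates formed 1 group without a second condition, and because 1 control served all of them, the replicate lists are only partly independent. The labels state neither which promoter drives the tagged protein nor whether untagged Runt was present, and whole embryos mix cell types and stages, so no peak can be given to 1 tissue or time. The same rule, applied to the 3065 strongest peaks of each replicate, found 940, 981 and 921 one-directional promoter peaks in replicates 1, 2 and 3.

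Runt is a founding member of the RUNX family, whose Runt domain contacts DNA together with a CBF-beta partner and which can activate or repress transcription, in part through the corepressor Groucho. In the fly embryo Runt acts as a pair-rule regulator of segmentation, and is also known for its part in reading the number of X chromosomes, and for work in the nervous system. A promoter holds the elements that place RNA polymerase at the start. The TATA box, the initiator and the downstream element are common at regulated genes, DRE and Motif 1 at housekeeping genes, and the TCT element at genes of the translation machinery. At a one-directional promoter no protein-coding start of the other strand lies near, so upstream has the same direction for every protein-coding start there. Of the 911 summits, 754 had 1 annotated start within 500 bases and 887 had starts of 1 gene only. A start of a non-coding gene lay equally near 61 of them, on the other strand in 49 cases.

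Windows under 6 of the strongest of these summits are given as examples, and they were rich in A and T. Shown are the 6 strongest one-directional promoter summits upstream of their start whose window of 101 bases touched no exon (1 chromosome arm was left out). Each is read on the strand of its gene, so that the start lies to the right, from the RefSeq copy of the dm6 assembly. Capitals mark the 10 six-base sequences that were most in excess at these summits, on either strand (named with the other sequence results).
CG18549, chr3R:12449128-12449228, plus strand: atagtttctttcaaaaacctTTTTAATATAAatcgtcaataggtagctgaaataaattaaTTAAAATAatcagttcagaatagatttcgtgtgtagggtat
CG14100, chr3L:19590561-19590661, minus strand: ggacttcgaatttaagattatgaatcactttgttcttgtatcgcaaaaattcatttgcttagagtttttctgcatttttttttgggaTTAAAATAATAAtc
Gapdh2, chrX:15867944-15868044, plus strand: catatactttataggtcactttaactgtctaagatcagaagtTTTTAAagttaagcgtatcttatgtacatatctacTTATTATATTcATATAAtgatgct
aay, chr3L:9423005-9423105, plus strand: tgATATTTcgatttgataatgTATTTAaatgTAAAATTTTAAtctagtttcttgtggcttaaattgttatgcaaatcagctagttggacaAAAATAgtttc
msi, chr3R:25515841-25515941, plus strand: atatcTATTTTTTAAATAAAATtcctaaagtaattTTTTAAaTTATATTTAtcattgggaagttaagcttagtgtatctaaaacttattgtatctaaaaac
CG1635, chr3R:31588505-31588605, plus strand: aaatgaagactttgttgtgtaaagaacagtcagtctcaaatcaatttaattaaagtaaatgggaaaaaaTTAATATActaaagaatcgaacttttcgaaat
These windows held 3 to 9 marked matches and had a GC content between 17.8% and 26.7%, against a mean of 34.97% over all 911 summit windows. They were picked to lie upstream and outside exons, and the marked sequences were found at these same summits. The windows are therefore no separate support for an excess of A and T. None of them held the RUNX consensus, which is TGCGGTC or TGCGGTT or TGTGGTC or TGTGGTT on either strand. Ranks in the IDR list, from the highest signal value down, were 5 for CG18549, 7 for CG14100, 9 for Gapdh2, 19 for aay, 21 for msi and 22 for CG1635.

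The RUNX consensus itself stood at 60 of the 911 summits. Shown next are the sites of the strongest one-directional promoter peaks that had it, with 10 bases to either side, read on the strand of the gene. Capitals mark the consensus, as written or as its reverse complement.
Dfd, chr3R:6791551-6791577, plus strand: atcccgctttAACCACAatgctccctc
Gbs-70E, chr3L:14551211-14551237, minus strand: aactgttttaTGTGGTCgttcattagt
run (upstream summit), chrX:20694182-20694208, plus strand: aattttttgcTGTGGTTgttgttgcgg
Pde6, chr3R:14558563-14558589, minus strand: atatggatcaAACCGCAgacagattgc
l(3)L1231, chr3R:14655275-14655301, minus strand: tttcccaaaaAACCGCAttattctgcc
akirin, chr3L:7370519-7370545, plus strand: acacacgtgtTGCGGTTtatcgagagg
CG9331, chr2L:20822814-20822840, plus strand: ttgttcaccaAACCGCAgtttagcgct
fray, chr3R:18585390-18585416, plus strand: taccgtttttAACCGCAagcttatcgt
run (summit at its first start), chrX:20690657-20690683, plus strand: ggccgatctcTGCGGTTaccccagccc
Dfd, a homeotic gene of the head, had the strongest of these peaks, at rank 43 in the IDR list. The others were Gbs-70E (rank 253), which encodes a glycogen-targeting subunit of protein phosphatase 1, run (285), the phosphodiesterase gene Pde6 (310), l(3)L1231 (346), akirin (351), CG9331 (372) and the kinase gene fray (662). CG6424 (279) and arr (614), which encodes a Wingless co-receptor, complete the 10 strongest. The run gene is listed for a second, weaker peak, at rank 2189, whose site overlaps its most upstream start.

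Summits lay mainly upstream of the start, most densely between 151 and 200 bases before it. Of the 911 summits, 691 (75.9%, exact 95% interval 72.9 to 78.6) lay upstream of the nearest start, whereas 45.2% of the sequence in one-directional promoters does. In a two-sided exact binomial test the adjusted p was 7.04e-78. The replicates' own strongest peaks gave 76.4%, 73.7% and 75.5% in replicates 1, 2 and 3 (75.2% ± 1.36, SD, n = 3). Here and below, adjusted p-values of the main comparisons are Benjamini-Hochberg adjusted over 12 exact tests, in which peaks or genes are the units, not replicates. The median summit lay 155 bases upstream (quartiles -254.5 and -6.5 bases, negative being upstream), and the replicates' own lists gave -122.5, -133 and -165 bases.

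Per megabase of one-directional promoter sequence, the IDR list held 192 summits between 200 and 151 bases upstream, 90.0 in the first 50 bases downstream and 13.9 from 450 to 499 bases downstream. The replicates gave 182 ± 16.6, 90.0 ± 13.4 and 15.2 ± 2.53 summits per Mb for the same bins (SD, n = 3). In replicate 1 the bin from 150 to 101 bases upstream was the densest, at 169 per Mb. The replicates differed most just before the start, where the 50 bases upstream held 115 ± 44.5 per Mb, the lowest value being in replicate 3. The 911 members thin out toward the 500-base limit without a break: 40 lay at 450 to 500 bases and 30 peaks lay just outside, beyond 500 and up to 550 bases. Nearest to the limit on the inside were the peaks of CG3638 (-499 bases), aru (498) and Fim (-498), and on the outside those of by (-502), Ada2b (503) and Btk (-503).

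**Figure D1:**
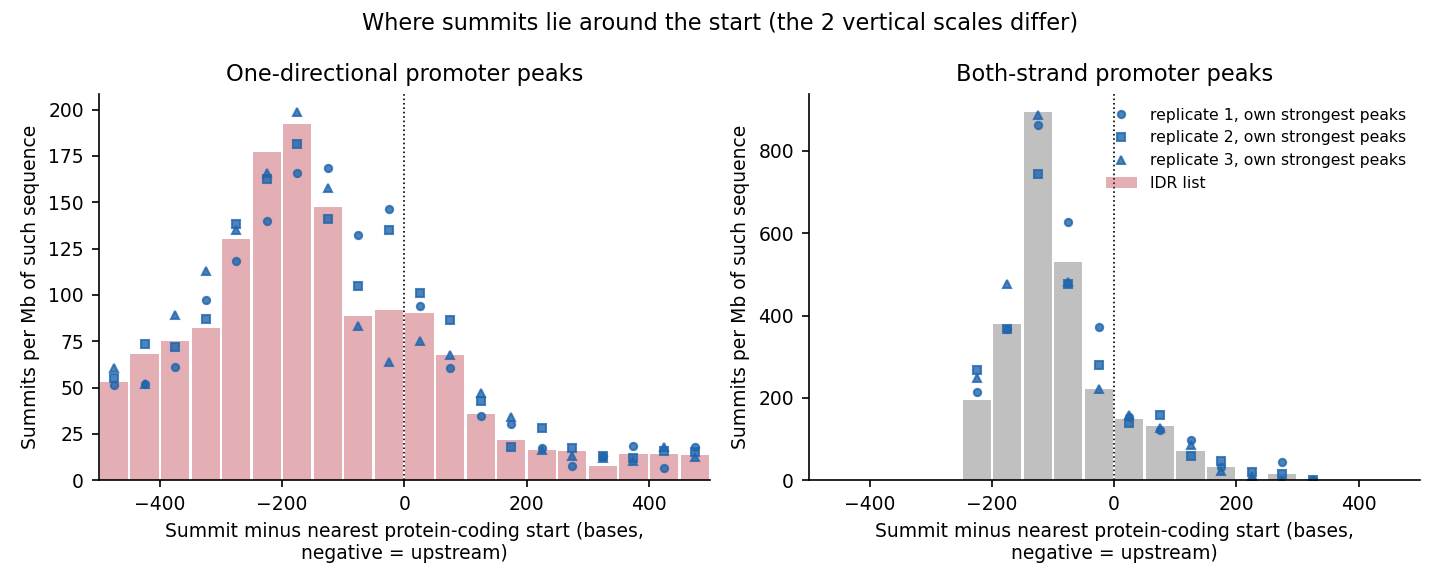
Summits per Mb of promoter sequence in bins of 50 bases, by signed distance from the nearest protein-coding start, for one-directional promoter peaks (left) and both-strand promoter peaks (right). Bars are the IDR list, symbols the replicates' own strongest peaks, bins with under 50000 bases of sequence are not drawn, and the vertical scales differ; the densest bin is 200 to 151 bases upstream on the left and 150 to 101 bases upstream on the right.

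The annotation under the summits differed between the sides of the start. Of the 691 upstream summits, 380 lay between genes, 229 in an intron of their own gene, upstream of an internal start, and 36 in its 5′ UTR. Another 35 lay in an intron and 10 in the 3′ UTR of a different gene, and 1 lay in coding sequence. Of the 220 summits at or downstream of the start, 159 lay in the 5′ UTR of their gene, 57 in an intron and 4 in coding sequence. The 157 summits with several starts within 500 bases were closer to a start, at a median of -40 bases and 61.1% upstream, than the 754 with 1 start, at -177.5 bases and 78.9%, which was not tested. In 286 peaks (31.4%) the summit was not the middle of the peak, and these lay at a median of -198.5 bases with 86.0% upstream. In the other 625 the summit was the middle, and the median was -116 bases. Whether such a summit is placed less finely was not tested. These 2 splits were chosen after seeing the data.

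Stronger peaks lay farther upstream. The IDR list was divided by the authors' signal value into 5 groups of equal size, and 244 one-directional promoter peaks fell in the strongest group and 165 in the weakest. Their median summits lay 200 and 60 bases upstream, and 90.6% and 65.5% of them were upstream of the start (two-sided Fisher's exact test, unadjusted p = 7.77e-10, chosen after seeing the data). The groups between had medians of -170, -135.5 and -83 bases. In the replicates' own lists, 90.1% ± 2.27 of the strongest group and 65.2% ± 1.24 of the weakest were upstream (SD, n = 3), and the values did not overlap. Their medians were -195 ± 5.22 and -65.5 ± 24.6 bases.

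**Figure D2:**
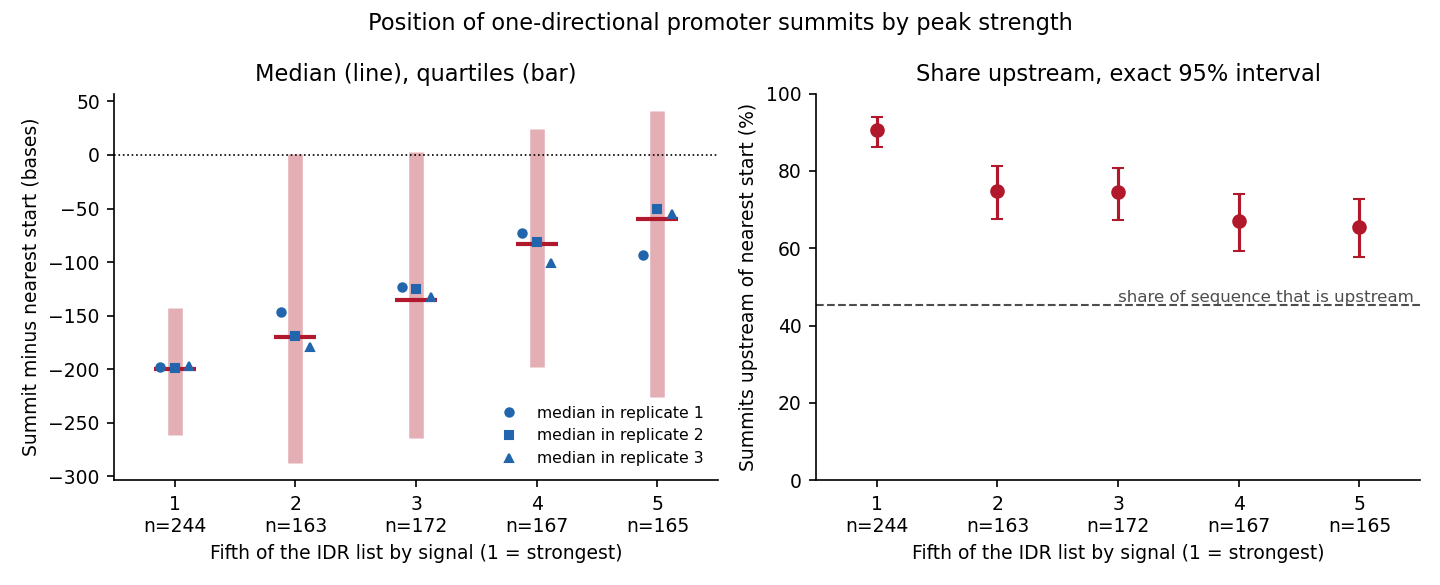
Left, signed distance of one-directional promoter summits from the nearest start in 5 groups of the IDR list by strength, with the median (line), quartiles (bar) and the medians of the overlapping peaks in each replicate (symbols). Right, the share of summits upstream with its exact 95% interval, against the 45.2% of promoter sequence that is upstream (dashed); the share was 90.6% in the strongest group and 65.5% in the weakest.

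Summit positions were compared across replicates. Of the 911 peaks, 901 (98.9%, exact 95% interval 98.0 to 99.5) shared 1 or more bases with a peak in each of the 3 replicate lists of 30000 peaks. Those lists come from the same reads as the IDR list. The peaks of the IDR list were the 3065 strongest of the pooled reads, which include every replicate, so this overlap is no separate support. Among these 901, the summit was upstream of the start in every replicate at 632 (70.1%) and downstream in every replicate at 162 (18.0%). The median SD of a summit's position over the 3 replicates was 30.4 bases (quartiles 16.8 and 49.1). Against each replicate's own 3065 strongest peaks, 678, 760 and 763 of the 911 were overlapped by such a peak in replicates 1, 2 and 3, so replicate 1 matched fewest.

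One-directional promoters carried fewer summits per base than promoters with starts on both strands. The one-directional promoters spanned 13.7 Mb and held 66.7 summits per Mb. Both-strand promoters spanned 1.67 Mb and held 220 per Mb, and the rest of the genome held 15.1 per Mb. The ratio of one-directional to both-strand promoters was 0.303 (exact 95% interval 0.268 to 0.343, two-sided exact binomial test, adjusted p = 3.80e-68). It was 0.276, 0.332 and 0.304 in replicates 1, 2 and 3. Sequence near starts of both strands is mostly close to a start, so the band from 51 to 300 bases upstream was compared as well, after seeing the data. It held 146 summits per Mb at one-directional and 528 per Mb at both-strand promoters, a ratio of 0.277 (0.237 to 0.325, exact unadjusted p = 2.37e-50). The gap was not even inside this band. From 150 to 101 bases upstream the values were 147 and 894 per Mb, and from 250 to 201 bases 177 and 196. From 300 to 251 bases they were 130 and 82.7 per Mb, the latter from 3 summits. Both-strand sequence in the band lay mostly nearer the start, and density per start was not compared.

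One-directional promoter peaks were often among the strongest. The strongest 613 peaks of the IDR list included 26.8% of one-directional promoter peaks, 24.7% of both-strand promoter peaks and 15.6% of peaks away from starts. The difference from peaks away was 11.2 percentage points (95% Newcombe interval 7.93 to 14.6, Fisher's exact test, adjusted p = 3.25e-11) and was 7.24, 8.29 and 10.04 points in replicates 1, 2 and 3. The difference from both-strand promoter peaks was 2.12 points (-3.29 to 7.202) and did not pass (exact adjusted p = 0.702). It was 0.0617, 0.0831 and 2.07 points in replicates 1, 2 and 3, and 1.78, 5.48 and 4.91 points in the lists that leave out replicate 1, 2 or 3, where it did not pass either. A match among the strongest peaks of all 3 replicates was found for 60.9% of one-directional promoter peaks, 62.9% of both-strand promoter peaks and 54.9% of peaks away. Such a match depends on peak strength, which differed from peaks away, and shares at equal strength were not compared. The difference from peaks away was 6.02 points (2.08 to 9.90, exact adjusted p = 0.00613). It was 3.70 points (exact adjusted p = 0.135) when the whole IDR list was matched to replicates 1 and 3 only. In replicate 2's own list it was 0.0437 points. The difference from both-strand promoter peaks was -1.95 points (-7.70 to 3.97) and did not pass in the IDR list (exact adjusted p = 0.702). It passed in replicate 2's own list (-9.94 points, exact adjusted p = 0.00262) and with 2 times as many pooled peaks (-6.25 points, 0.0135), and was 2.95 and -3.61 points in replicates 1 and 3.

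No difference in density between X and the autosomes was detected at this number of peaks. Arms 2L, 2R, 3L and X held 175, 180, 193 and 157 of the peaks, chromosome 4 held 1 and 3R the rest. Per megabase of one-directional promoter sequence, X had 67.3 summits and the autosomal arms 67.1, a ratio of 1.00 (exact 95% interval 0.838 to 1.19, exact adjusted p = 0.965). With promoters cut at 250 bases the ratio was 0.786 (exact adjusted p = 0.0473). The median summit on X lay at -191 bases, against -148 on the autosomes. Genes on the plus strand had 421 of the peaks (46.2%), whereas 49.7% of the sequence belongs to them (exact unadjusted p = 0.0399). The shares upstream were 79.1% for plus-strand genes and 73.1% for minus-strand genes.

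The RUNX consensus was more frequent at the summits than beside them, and less frequent than at peaks away from starts. It lay within 50 bases of 60 of the 911 summits (6.59%, exact 95% interval 5.06 to 8.40), against 24 equally wide windows placed 500 bases away, on 1 side (2.63%, 1.70 to 3.89). The difference was 3.95 percentage points (exact McNemar test, adjusted p = 0.000209). In the replicates' own lists the summits had 6.06%, 6.93% and 6.19% and the flanks 4.15%, 3.47% and 4.56%. Summits were thus higher in all 3 replicates, but the difference passed in replicate 2 alone (exact adjusted p = 0.158 in replicate 1, 0.00262 in replicate 2 and 0.301 in replicate 3). In the list that leaves out replicate 2, it was 2.44 points (exact adjusted p = 0.135).

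The consensus stood at 6.59% of one-directional and 5.69% of both-strand promoter summits, a difference of 0.895 points (95% interval of the difference -2.30 to 3.54, exact adjusted p = 0.736). With promoters cut at 250 bases this difference was 5.36 points (exact adjusted p = 0.00510). Against the 11.5% of summits away from starts, the difference was -4.95 points (-7.08 to -2.67, exact adjusted p = 8.91e-05), and -4.42, -3.11 and -4.75 points in replicates 1, 2 and 3. With promoters cut at 250 bases it was -2.51 points (exact adjusted p = 0.0899). Of the 62 sites at one-directional promoter summits, 28 (45.2%, exact 95% interval 32.5 to 58.3) read TGCGGTC or one of its variants on the strand of the gene, and no difference from an even split was detected (exact adjusted p = 0.702).

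**Figure D3:**
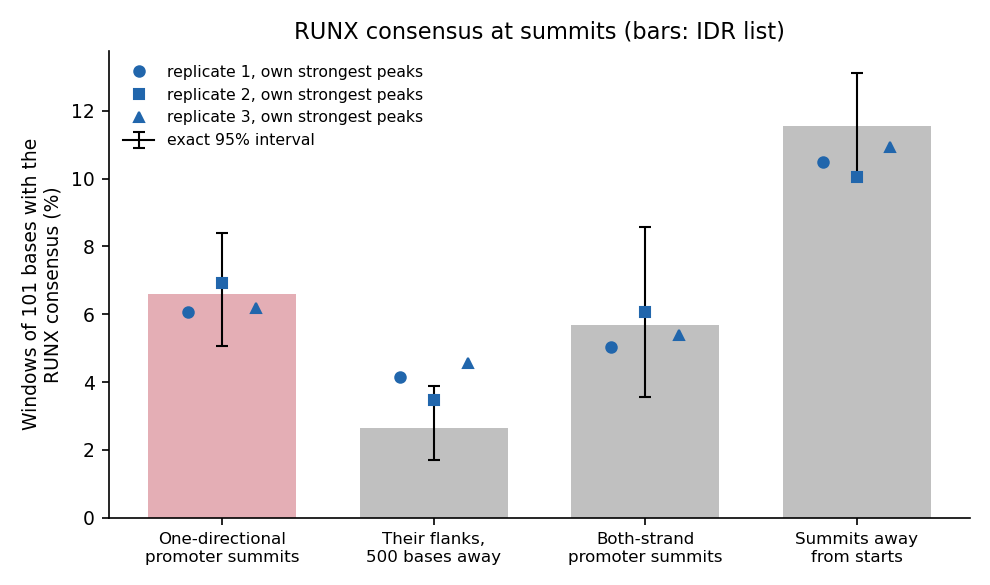
Share of windows of 101 bases that hold the RUNX consensus on either strand, at one-directional promoter summits, in their flanks, at both-strand promoter summits and at summits away from starts. Bars with exact 95% intervals are the IDR list and symbols the replicates' own strongest peaks; one-directional promoter summits (6.59%) are above their flanks (2.63%) and below summits away from starts (11.5%).

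In the IDR list, the median summit with the consensus lay closer to the start than that of the others. The 60 had a median position of -57 bases and 60.0% were upstream, against -157 bases and 77.0% for the 851 without it, values that were not tested. The overlapping peaks had medians of -48, -54 and -130 bases with the consensus in replicates 1, 2 and 3, and of -146, -157 and -161.5 bases without it, so the gap was narrowest in replicate 3. The strongest of the 5 groups had the consensus at 8 of 244 summits (3.28%) and the weakest at 10 of 165 (6.06%, Fisher's exact test, unadjusted p = 0.221). The groups between had 10.4%, 8.14% and 6.59%, from stronger to weaker, so the share did not change steadily with strength. In the replicates' own lists the strongest group had 4.87%, 4.55% and 4.58% in replicates 1, 2 and 3. The weakest had 5.17%, 7.81% and 4.09%, so the order was the other way in replicate 3. None of the 20 strongest one-directional promoter summits had it.

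Six-base sequences made of A and T had the largest excess at the summits. Counting a sequence and its reverse complement as 1, 100 of all six-base sequences (4.81%) were more frequent in summit than in flank windows and 93 (4.47%) less frequent (exact McNemar tests, adjusted over all of them). Of the 100, 36 held only A and T and none held more than 2 G or C. Of the 93, 92 held 3 or more. AAATAT led, in 34.7% of summit and 16.6% of flank windows (exact adjusted p = 4.93e-15). AATATA followed at 24.4% and 10.4%, TAAATA at 29.6% and 14.7%, ATTTTA at 29.4% and 14.2%, ATATTA at 19.98% and 7.68% and AAAATA at 37.1% and 20.97%. The other leading sequences were TTAAAA at 30.96% and 16.2%, TATTAA at 23.3% and 10.3%, ATATAA at 19.6% and 8.23% and TAATAA at 20.7% and 9.55%. The RUNX core TGCGGT ranked 122 among sequences higher at summits, at 5.49% and 3.07% (exact adjusted p = 0.0821).

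The count rested on the side of the flank. Against the window 500 bases upstream alone, 19 sequences were higher and 15 lower, and against the downstream window 218 were higher and 287 lower. Around the starts of these peaks the GC content was 34.5% from 220 to 201 bases upstream, 49.3% in the last 20 bases before the start and 43.4% at the downstream end. One-directional promoter genes without an IDR summit had 36.9%, 44.8% and 46.5% in the same bins.

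Set against both-strand promoter summits, the one-directional ones were less rich in A and T. Their windows had 34.97% ± 10.95 GC, against 30.6% ± 9.83 at both-strand promoter summits and 34.8% ± 10.2 at peaks away from starts (SD over peaks). Of all six-base sequences, 3 (0.144%) were more frequent at one-directional promoter summits and 23 (1.11%) less frequent (Fisher's exact tests, adjusted over all of them). The 3 were AAAATC at 15.5% against 7.86%, CGGCGA at 4.50% against 0.542% and GAGAAC at 3.40% against 0.271%. The 23 were led by AAATAA, at 31.7% against 47.7% (exact adjusted p = 0.000147), and AATAAT, at 22.4% against 37.1%, and 17 of them held only A and T. In the lists that leave out 1 replicate, 0 or 1 sequences were higher and 8 to 13 lower.

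Genes with a one-directional promoter peak differed from other one-directional genes in the elements at their start. The canonical starts of 622 genes with such a summit within 500 bases were compared with those of 9631 genes without any IDR summit there, out of 10307 canonical starts with no protein-coding start of the other strand within 500 bases. Of 13 elements, 9 (69.2%) differed (Fisher's exact tests, Benjamini-Hochberg adjusted over the 13), 8 of them more frequent in genes with a peak. No element's letters lie within those of another, although their matches can share bases. A match is a description of the letters and not a measured site.

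GAGA, the recognition sequence of GAGA factor (GAGAGA on either strand from 100 bases before to 50 after the start), showed the largest difference. It stood at 17.2% of genes with a peak, against 7.34% of genes without one and 7.11% of all 13944 canonical starts (exact adjusted p = 5.73e-14). The replicates' own lists gave 17.3% ± 1.90 with a peak and 7.31% ± 0.121 without (SD, n = 3). The sequence is fixed and the lists share many genes, so these SDs show only genes that change group. The initiator (TCAGTC or TCAGTT or TCATTC or TCATTT on the gene strand, beginning within 5 bases of the start) stood at 20.6% against 13.3%, with 11.5% of all starts (exact adjusted p = 8.45e-06). The downstream element (AGACGTG or AGTCGTG or GGACGTG or GGTCGTG, beginning 20 to 40 bases after the start) stood at 3.38% against 1.30%, with 1.14% of all starts (exact adjusted p = 0.000621).

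The TATA box (TATAAA on the gene strand, beginning 45 to 15 bases before the start) was the element that was less frequent. It was found at 6.11% of genes with a peak, against 11.1% of genes without one and 9.27% of all starts (exact adjusted p = 0.000143). In the replicates it stood at 5.42% ± 0.0246 with a peak and 11.2% ± 0.0131 without (SD, n = 3). As for GAGA, these SDs show only genes that change group between lists.

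Elements of housekeeping promoters were divided. Motif 1 (GGTCACACT) stood at 6.43% against 3.18%, with 5.01% of all starts, the Motif 5 E-box (CAGCTG) at 15.1% against 9.45%, with 12.1%, and Motif 7 (CAGCNCTA or CAGCNCTG or CATCNCTA or CATCNCTG) at 13.5% against 9.79%, with 13.7%. Motif 6, named only, stood at 2.09% against 1.02%, with 1.499% of all starts. Their exact adjusted p-values ran from 6.16e-05 to 0.0351. Motif 1 passed in none of the lists that leave out 1 replicate (1.25 to 1.99 points), Motif 6 was lost without replicate 1 (0.245 points) or 3 (0.877 points), and Motif 7 without replicate 1 (2.83 points) or 2 (2.63 points). Among the stronger peaks, down to the middle rank of the list, these 3 did not pass, nor did the downstream element. DRE (TATCGATA), the site of the factor DREF, did not pass, at 5.14% against 4.95%, with 7.29% of all starts (exact adjusted p = 0.776).

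The TCT element (CTTTCC or CTTTCT or CTTTTC or CTTTTT on the gene strand, beginning within 5 bases of the start) stood at 3.54% of genes with a peak, against 1.58% without and 1.68% of all starts (exact adjusted p = 0.00192). The call was lost without replicate 2 (1.24 points, exact adjusted p = 0.141), with promoters of 1000 bases (0.733 points, 0.170) and among the stronger peaks, down to the middle rank of the list (1.67 points, 0.0632). Of its 22 genes with a peak, 13 encode cytoplasmic ribosomal proteins. Without ribosomal protein genes the shares were 1.52% and 1.48% (exact unadjusted p = 0.861, chosen after seeing the data). Among ribosomal protein genes alone, 13 of 29 with a peak and 10 of 26 without had the element (exact unadjusted p = 0.785).

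The RUNX consensus near the start passed under some settings. In the IDR list it did not, at 8.68% against 6.57%, with 6.68% of all starts (exact adjusted p = 0.0607). The difference of 2.11 points passed with promoters cut at 250 bases (5.94 points, exact adjusted p = 4.84e-06) or 1000 bases (2.51 points, 0.0186), with canonical starts only (2.36 points, 0.0350) and with 2 times as many pooled peaks (2.69 points, 0.00121). In the lists that leave out 1 replicate it was 0.802 to 1.03 points and did not pass. The GATA-factor element (AGATAA) did not pass in the IDR list, at 6.75% against 8.76%, with 8.24%, nor did the Zelda sequence (CAGGTA), at 2.25% against 3.37%, with 3.16% of all starts. The difference in GATA passed with promoters of 1000 bases (-2.78 points, exact adjusted p = 0.0161) and with 2 times as many pooled peaks (-2.20 points, exact adjusted p = 0.0130), and that in Zelda with 2 times as many pooled peaks (-1.19 points, exact adjusted p = 0.0337). The compared genes also differed in length and composition. Genes with a peak had a median span of 5266 bases and more than 1 annotated start in 47.4% of cases, against 2113 bases and 25.1% for genes without one. Their windows from 100 bases before to 50 after the start had 46.8% ± 8.11 GC, against 42.5% ± 8.79 (SD over genes). The part of these differences in the element shares was not tested.

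**Figure D4:**
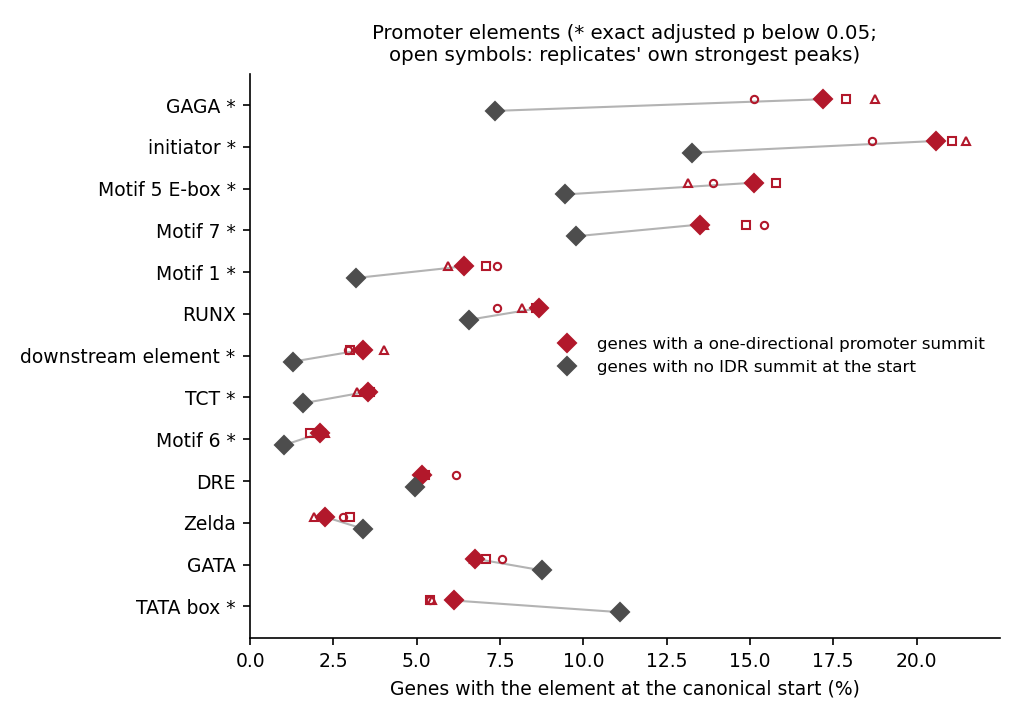
Share of genes whose canonical start carries each element, for genes with a one-directional promoter summit (red) and one-directional genes with no IDR summit at the start (grey). Diamonds are the IDR list and open symbols the replicates' own strongest peaks; GAGA shows the widest gap, 17.2% against 7.34%, and the TATA box is lower in genes with a peak, 6.11% against 11.1%.

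No difference was detected in the strand of the upstream neighbour. The nearest upstream protein-coding gene was on the same strand for 57.9% of the genes with a peak and 57.2% of those without, a difference of 0.708 points (95% interval -3.33 to 4.66, exact adjusted p = 0.805). At 160 of the 911 summits the 3′ end of another gene on the same strand lay within 500 bases, and there the median position was -110 bases, against -169 bases at the other 751.

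In all, 859 of 13944 protein-coding genes (6.16%) had a start within 500 bases of a one-directional promoter summit. Gene lists are described by counts beside this share, without a test, and were chosen with earlier results of these data known. Genes with starts near those of the other strand have less one-directional sequence, and the lists were not matched for this. The strongest peak belonged to Ugalt, which encodes a UDP-galactose transporter. It ranked 4 in the IDR list and 2, 4 and 6 in replicates 1, 2 and 3, with the summit 38 bases upstream of the start (24, 27 and 22 bases in the replicates). Its signal value was 1502 in the IDR list and 414, 500 and 591 in replicates 1, 2 and 3, on the authors' scale. CG18549 (rank 5), the endoplasmic reticulum isomerase gene Fkbp14 (6), CG14100 (7) and px (8), a gene of wing vein patterning, followed. Next were Gapdh2 (9), mRpL41 (11) for a mitochondrial ribosomal protein, CG31612 (14), PNPase (17) for mitochondrial polynucleotide phosphorylase and aay (19) for phosphoserine phosphatase. The 20 strongest were completed by Tina-1 (20), the RNA-binding protein gene msi (21), CG1635 (22), the casein kinase gene gish (26), the pseudouridine synthase gene RluA-1 (27), CG31145 (29), the ecdysone-induced transporter gene E23 (31), CG1888 (33), the transporter gene MFS10 (36) and the Polycomb-group gene ph-p (38).

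Of these 20 summits, 17 lay upstream of the start and 3 downstream, those of CG31612 (443 bases), PNPase (79) and ph-p (433). Each was found in every replicate, at ranks no lower than 65. PNPase, for example, ranked 10, 27 and 18 in replicates 1, 2 and 3, with summits 81, 86 and 79 bases downstream of the start. The ph-p gene had a second peak, at rank 42 and 471 bases upstream of another of its starts, and ranked 16, 35 and 53 there in the replicates.

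Glycolytic genes had the largest share among the 22 lists with promoters of 500 bases. With promoters cut at 250 bases they had 4 of 13, a smaller share than the 38 of 88 cytoplasmic ribosomal protein genes and the 3 of 7 genes of the RUNX list. At 500 bases a one-directional promoter summit was found at 6 of 13 (46.2%), and at 6 in each replicate's own list. Gapdh2, for glyceraldehyde-3-phosphate dehydrogenase, ranked 7, 9 and 7 in replicates 1, 2 and 3, with the summit 168, 157 and 167 bases upstream. Hex-A, for hexokinase, ranked 94 in the IDR list and 151, 138 and 44 in the replicates, and Eno, for enolase, ranked 116 and then 118, 148 and 99. Ldh, for lactate dehydrogenase, ranked 202 with the summit 200 bases upstream. Pgk (982) and PyK (2821) had weaker peaks. PyK lay at ranks 3050, 4731 and 1963, and so among the 3065 strongest in replicates 1 and 3 at this site. Of the 7 peaks at these genes, 6 lay upstream of the start, at a median of -200 bases over the 7, and none had the RUNX consensus.

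Cytoplasmic ribosomal protein genes had one-directional promoter peaks in 30 of 88 cases (34.1%), and 27, 32 and 25 in replicates 1, 2 and 3. The lists that leave out 1 replicate, which are shorter, gave 17 to 21 of them among 585 to 642 genes. Their summits lay at the start. The median position was 13 bases downstream of the start, 27 of 30 summits were within 50 bases of it and 12 of 30 were upstream. The overlapping peaks had medians of -10.5, 27.5 and 12.5 bases in replicates 1, 2 and 3, so the side changed in replicate 1. Among the other 881 peaks the median was 160 bases upstream, 106 (12.03%) lay within 50 bases and 77.1% were upstream. The strongest were those of RpS4, at rank 326 and 25 bases downstream, RpL30, at rank 473 and 32 bases downstream, and RpL24, at rank 494 and 6 bases upstream. The RpS4 summit lay at -58, 27 and 51 bases in replicates 1, 2 and 3, and 19 of the 30 summits were in the 5′ UTR of their gene. Of the 30, 1 had the RUNX consensus. The genes of mitochondrial ribosomal proteins had 1 of 73, mRpL41. With both-strand promoter peaks counted as well, 56 of 88 cytoplasmic and 10 of 73 mitochondrial ribosomal protein genes had a peak.

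Notch pathway and Enhancer of split genes had 6 of 16 (37.5%), and 7, 6 and 7 in replicates 1, 2 and 3. The leading ones were E(spl)m3-HLH, a repressor gene of the complex, at rank 405 and 428 bases upstream, neur, for a ubiquitin ligase of the pathway, at rank 714, and E(spl)m7-HLH at rank 1180. The ranks of E(spl)m3-HLH were 999, 315 and 318 in replicates 1, 2 and 3, and those of E(spl)m7-HLH were 7254, 1582 and 872, so replicate 1 was the weakest at both. The Enhancer of split genes are neighbours on arm 3R. Of the 8 peaks at these genes, 7 were upstream of the start.

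Among regulators of segmentation, run was the only pair-rule gene of 9 (11.1%) with such a peak in the IDR list. The 2 summits of run both had the RUNX consensus. The stronger lay 226 bases upstream of an internal start, at rank 285, and at ranks 426, 252 and 302 in replicates 1, 2 and 3. The other lay 23 bases downstream of the most upstream start, at rank 2189, and at ranks 1497, 2061 and 5973, so it was outside the 3065 strongest in replicate 3. Segment polarity genes had 1 of 15 (6.67%), nkd (rank 488), homeotic genes and cofactors 1 of 11 (9.09%), Dfd, and gap and head genes 0 of 13. Replicates 1, 2 and 3 gave 1, 2 and 1 pair-rule genes and 2, 1 and 2 segment polarity genes. The exact interval was 0.281% to 48.2% for pair-rule genes. It included the 6.16% of all genes, as did those of the other lists named here, so lists this small cannot be set apart from that share.

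The RUNX list held run and gro, the gene of Groucho, as 2 of 7, and the sex determination list run, gro and Sxl as 3 of 15. The gro summit ranked 511, and 445, 537 and 644 in replicates 1, 2 and 3, 110 bases upstream of a start. Sxl, the switch gene of sex determination, had 2 summits. One lay 452 bases downstream of an internal start, at rank 1479, and the other 29 bases downstream of its most upstream start, at rank 2618, and neither had the consensus. The second was at ranks 1919, 1841 and 4517, outside the 3065 strongest in replicate 3.

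Mesoderm and dorsoventral genes had 5 of 24 (20.8%), led by the heart gene tin (rank 314), the FGF receptor gene htl (1010) and the integrin gene if (1930). Muscle structural genes had 4 of 17 (23.5%), led by Msp300 (418), sls (659), for the titin-like protein Sallimus, and Act87E (1912), and all 4 summits were upstream. Muscle genes numbered 2, 4 and 4 in replicates 1, 2 and 3, 2 in the list without replicate 2 or without replicate 3, and 0 with promoters cut at 250 bases. Mesoderm and dorsoventral genes numbered 4, 6 and 4 in the replicates and 3 in each list that leaves out 1 replicate. Chromatin regulators had 5 of 40 (12.5%), led by ph-p, Sin3A (1562) and trx (1932), with 8, 7 and 5 in the replicates and 3 in the list without replicate 1. Neuroblast and neuronal genes had 2 of 25, the pan-neuronal RNA-binding protein gene elav (rank 67, and 98, 81 and 60 in replicates 1, 2 and 3) and Syx1A (2911).

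Several lists were at or below the share of all genes. Translation factors had 3 of 52, which were eIF6 (183), eEF1gamma (534) and eIF5B (2217), but 7, 4 and 4 in replicates 1, 2 and 3. Cytoskeleton and trafficking genes had 3 of 61, which were Rab5 (269), Act5C (1506) and alphaTub84B (3016). Basal transcription and Mediator genes had 2 of 56, Taf4 (1475) and MED4 (2826), and respiratory chain genes 2 of 86, COX7AL2 (2459) and ND-B22 (2690). No such summit was found at 179 chemoreceptor genes, 122 cuticle protein genes, 48 proteasome genes or 33 aminoacyl-tRNA synthetase genes. Of these 4 lists, the replicates' own strongest peaks gave such a summit only at 1 cuticle protein gene, in replicate 1. With both-strand promoter peaks counted as well, 3 proteasome and 4 synthetase genes had a peak, and 0 chemoreceptor and 0 cuticle protein genes. The same count was 7 for translation factors, 7 for cytoskeleton and trafficking, 8 for basal transcription and Mediator, and 9 for respiratory chain genes. The matching share of all genes is not given here.

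**Figure D5:**
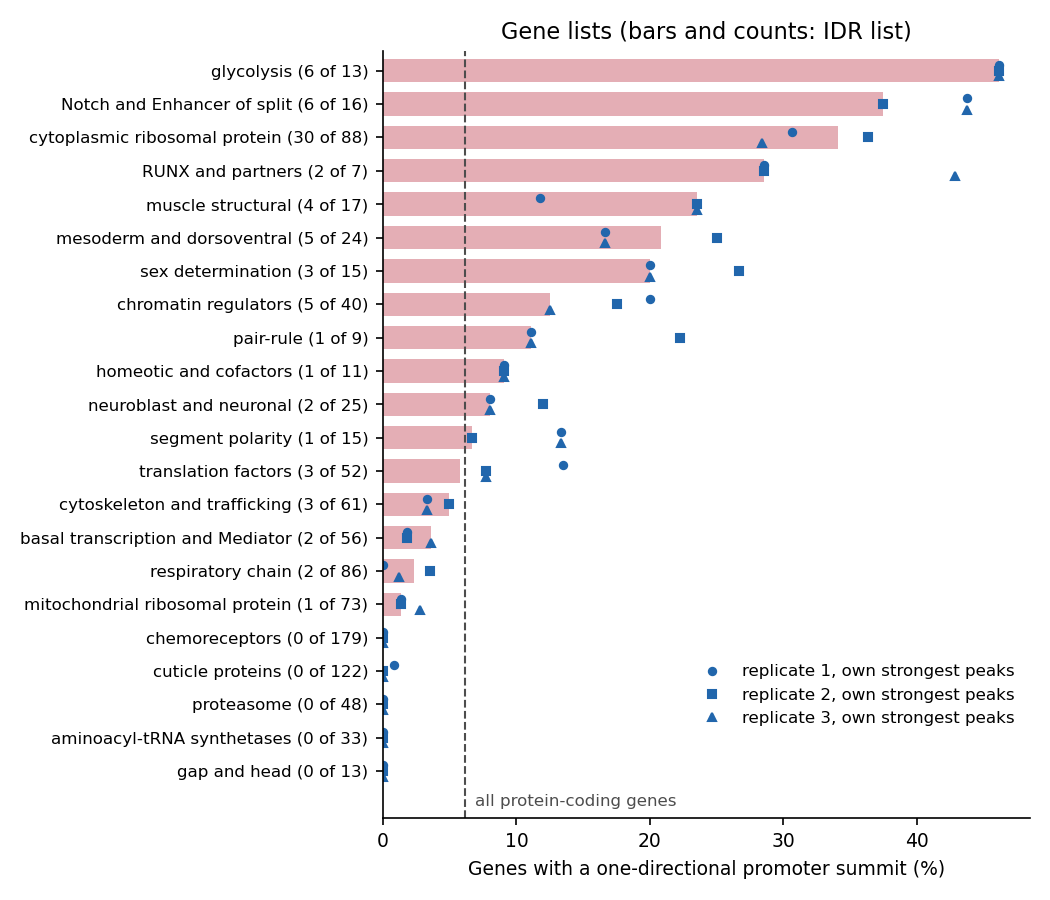
Share of the genes of each list with a one-directional promoter summit, with counts beside the names, bars for the IDR list and symbols for the replicates' own strongest peaks. The dashed line is the share of all protein-coding genes (6.16%); glycolysis (6 of 13), Notch and Enhancer of split (6 of 16) and cytoplasmic ribosomal protein genes (30 of 88) have the longest bars.

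Some genes had several one-directional promoter summits, 57 with 2, 7 with 3 and dnc with 4. The 4 of dnc, which encodes a cAMP phosphodiesterase, lay 328, 314, 292 and 269 bases upstream of 4 starts of the gene on the X chromosome, at ranks 1183, 276, 359 and 2963. Over the replicates these summits moved between 262 and 371 bases upstream. Drat, Moe, Ptpmeg2, REPTOR, Rtnl1, drn and pyd had 3 each. For Ptpmeg2, a tyrosine phosphatase gene, all 3 were strong, at ranks 114, 132 and 264, and lay 214, 223 and 186 bases upstream. REPTOR, the gene of a transcription factor downstream of TORC1, had 1 upstream (166 bases, rank 102) and 2 downstream (159 and 393 bases, ranks 1492 and 1774).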

How the data were processed

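ChIP-seq with an antibody against GFP was made from Runt-GFP embryos in 3 biological replicates, all in 1 group. Peaks were deposited by the authors per replicate, for the pooled reads and as an IDR list, on dm6. The signal value of each peak is the authors' own and served only to order peaks inside each list. The authors' deposited −log10 q-value was the same, 3.82, for every IDR peak and was not used. Peak caller, settings and read depth are unknown here.

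The 3065 IDR peaks were the 3065 strongest pooled peaks, and each replicate was represented by its own 3065 strongest of 30000. Summits were placed against protein-coding transcript starts of Ensembl release 115, and sequence was read from RefSeq's copy of dm6. Summits per base were compared with exact binomial tests, shares with Fisher's exact test, and summit with flank windows with the exact McNemar test, all two-sided, with Benjamini-Hochberg adjustment and a threshold of 0.05. Intervals are exact or, for differences, Newcombe's, at 95%, and cover counting error only. Named are the 20 strongest members, the 10 strongest with the RUNX consensus, members of 22 gene lists, genes with several summits and the leading six-base sequences. Members and lists were chosen with earlier results of these data known. Alternatives were another distance, start set, list length, window and flank, and leaving out each replicate. A list that leaves out a replicate kept the IDR peaks overlapped by the 3065 strongest peaks of each of the other 2. Its summits and signal values still came from all 3 replicates. For match shares the whole IDR list was instead matched to the other 2. These lists are stricter parts of the IDR list, and a change there was not traced to the replicate left out. Scripts, tested on simulated data, ran in Python 3.11.15 with scipy 1.17.1, statsmodels 0.14.6, numpy 2.4.6, pandas 2.3.3 and matplotlib 3.10.9.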

Additional observations from a re-analysis of the deposited data

How the results depend on the processing

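Most alternatives of the main results kept the direction and the side of the threshold. The upstream share (70.4% to 86.0%), the density ratio to both-strand promoters (0.191 to 0.433) and the difference from peaks away in the share among the strongest peaks (5.60 to 13.01 points) kept theirs in every alternative run. The causes of the changes below were not tested, and the lists differ in size.

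With promoters cut at 250 bases, the X ratio was 0.786, the median position -107.5 bases, the strongest-peak difference from both-strand peaks -2.16 points, the match difference from peaks away 2.07 points, the RUNX differences 5.36 points from both-strand peaks and -2.51 from peaks away, the gene-strand share 52.4%, the same-strand neighbour difference -0.954 points and the six-base count at summits 51. At 1000 bases the match difference from both-strand peaks was 0.849 points, flank sequences numbered 155, and 0 were higher and 4 lower than at both-strand peaks. With canonical starts these values were 0.930 for the X ratio, -0.132 points for the strongest peaks, 4.87 points for the match, 15 sequences lower and -1.09 points for neighbours. The RUNX element near the start passed at 250 and 1000 bases and with canonical starts.

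In the list cut at its middle rank, 491 peaks were members, at a median of -186 bases, the match difference from both-strand peaks was 5.397 points, 0 sequences were higher and 1 lower, 4 elements passed and 480 genes had a peak. With 2 times as many pooled peaks there were 1772 members, a median of -112.5 bases and 1562 genes. The X ratio was then 0.915, the strongest-peak difference from both-strand peaks -4.26 points, the match differences -6.25 points from both-strand peaks (passing, exact adjusted p = 0.0135) and 1.85 points from peaks away, 52 sequences higher and 63 lower, and the neighbour difference -1.27 points.

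Leaving out each replicate in turn gave strongest-peak differences of 1.78 to 5.48 points from both-strand peaks, match differences of -3.11 to 3.74 points from both-strand peaks and 3.70 to 6.36 from peaks away, RUNX summit-flank differences of 2.44 to 3.43 points, neighbour differences of -0.609 to 1.63 points, 0 to 1 sequences higher and 8 to 13 lower than at both-strand peaks, and 6 to 7 elements passing. DRE differences ran from -0.177 to 0.0887 points, with -0.151 without replicate 2, and were -0.143 with starts of every biotype and -0.448 in the list cut at its middle rank.

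The replicates' own lists gave X ratios of 0.963, 0.946 and 0.967, match differences of 2.95 and, passing, -9.94 points from both-strand peaks in replicates 1 and 2 and of 2.27 and 0.0437 from peaks away, and RUNX summit-flank differences of 1.91 and 1.63 points in replicates 1 and 3. The median was -122.5 bases in replicate 1 and the neighbour difference -1.73 points in replicate 3. Sequences numbered 60 at summits and 46 in flanks in replicate 1, and 47 and 45 in replicate 2, and 6 and 11 were higher than at both-strand peaks in replicates 2 and 3. Windows of 25 bases to either side gave 42 and 24 sequences, and 0 higher and 4 lower. Windows of 100 bases gave 158 and 172, and 25 higher and 39 lower. The flank at 1000 bases gave 163 flank sequences, the upstream flank 19 and 15, and the downstream flank 218 and 287.

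Members with 1 start had a median of -177.5 bases and those with the summit off the middle -198.5 bases, with a RUNX difference of 2.45 points. Motif 6 was also lost with canonical starts (0.869 points), with starts of every biotype (1.02 points) and in replicate 2's own list (0.772 points). No paired analysis was possible because the samples form 1 group.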
